A study of Rattus norvegicus with 6 samples.

Results

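Chemokine and chemokine receptor genes were examined in pancreatic duct glands of pre-diabetic HIP rats and wild-type rats. Every listed gene whose symbol is that of a numbered Ccl, Cxcl, Ccr, Cxcr or Ackr gene, or Cx3cl1, Cx3cr1 or Xcr1, was taken, which gave 48 of the 15675 distinct genes. They comprise 18 CC ligands, 12 CXC ligands, the CX3C ligand Cx3cl1 and 17 receptors. HIP rats are Sprague-Dawley rats made transgenic for human islet amyloid polypeptide (HIAPP), a beta cell peptide that forms toxic aggregates, and in this line an insulin gene promoter drives the transgene. The 3 HIP libraries are HIP30, HIP2 and HIP3, and the 3 libraries of Sprague-Dawley rats without the transgene are WT26, WT1 and WT4, each named by group and title number. No age or treatment is given in the sources used here for either group. Glands were picked by morphology and cut out by laser microdissection. Whether the 3 libraries of a group are 3 animals is not given, so p-values cover only library-to-library spread, which could be technical.

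Chemokines are small secreted proteins that steer leukocytes along concentration gradients. They are named by the spacing of their conserved cysteines (CC, CXC, CX3C) and act on G protein-coupled receptors, while atypical receptors bind ligand without G protein signalling and clear it. Duct epithelium is known to secrete chemokines in pancreatitis, and resident macrophages and dendritic cells both make and sense them.

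Library totals ran from 15141136 to 17574682 reads. Levels are read counts per library total (CPM), with totals scaled by trimmed mean of M-values (TMM) factors, and 1 read was worth 0.0597 to 0.0616 CPM. All 11 listed duct markers had reads in every library, though Tff2 had only 3 in WT26. Their summed level was 10846 to 13450 CPM in HIP and 11024 to 27213 CPM in WT libraries. Krt7, Sox9 and Muc6 were not analysed here. HIP3 and WT4 held most beta cell transcripts, with marker sums of 5041 and 11468 CPM, while HIP30 and WT26 had no read of any listed beta cell marker. Of the 48 genes, 7 were at 0 reads in HIP30, 3 in HIP2 and 4 in HIP3, against 23 in WT26, 10 in WT1 and 2 in WT4. Over all 15675 genes, 2440 were at 0 reads in HIP30, 2155 in HIP2 and 1837 in HIP3, against 2822 in WT26, 2488 in WT1 and 672 in WT4, so WT4 had by far the fewest. A count of 0 allows up to 0.179 to 0.185 CPM, which covers counting error only.

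No chemokine or receptor gene passed the test between HIP and WT glands. Of the 38 tested members 6 stood higher in each HIP library than in each WT library, 5 of them CC ligands. Among all tested genes 4.75% did so. For the CC ligands Ccl3 and Ccl9 the filter on low values fixed this gap. For Ccl2, Ccl7 and Ccl22 HIP3 exceeded WT4 by only 56 to 48, 14 to 10 and 47 to 40 reads. The test was limma with an intensity trend on log2(CPM + 0.121), fitted over 12102 genes with Benjamini-Hochberg adjustment. It called 0 genes, or 0% of those tested, as did limma-voom on the recovered reads. With p left unadjusted and a threshold of 0.05, 8 members were higher and 2 lower by limma, 10 in all, where 3.13% of all tested genes were higher, 3.4% lower and 6.54% either. The same threshold gave 6 and 1 members by limma-voom, and 791 and 927 genes in all by limma and limma-voom. The 38 tested members had 28 positive differences, where 50% of all tested genes were positive, and a median of 0.95 on the log2 scale against 0.00 for all tested genes. Among all 48 genes without a filter on low values, 35 differences were positive and the median was 0.92. Of the 38, the genes Ccl3 and Ccl9 passed the filter through HIP libraries alone and Ccl21 through WT libraries alone, so these 3 had to differ. Ccl3 and Ccl9 are among the 8 higher members and Ccl21 is among the 2 lower, so they are no support in these counts.

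These counts depended on single libraries. The unadjusted count of 10 became 6 of 40 tested members without HIP30 and 5 of 39 without HIP2, fits in which the share over all tested genes also fell, to 2.21% and 1.97% against 6.54%. The median became 0.38 without WT26, 0.61 without HIP30, 1.60 without WT4 and 1.48 without HIP3. Leaving out HIP3 and WT4, the libraries with most beta cell transcripts, gave 28 members at an unadjusted p under 0.05. In that fit 22% of all tested genes passed, and the median of tested members was 2.30. Against the WT mean, the median log2 level of tested members was 1.78, 1.07 and 0.19 in HIP30, HIP2 and HIP3. It was -0.88, -0.18 and 1.23 in WT26, WT1 and WT4, so WT4 lay above HIP2 and HIP3. Leaving out the lowest HIP and the highest WT library thus had to widen the gap. Among the libraries numbered 1 to 4, 22 of 40 tested members were positive and the median was 0.02. The numbers come from the titles, which do not call them a batch.

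**Figure D1:**
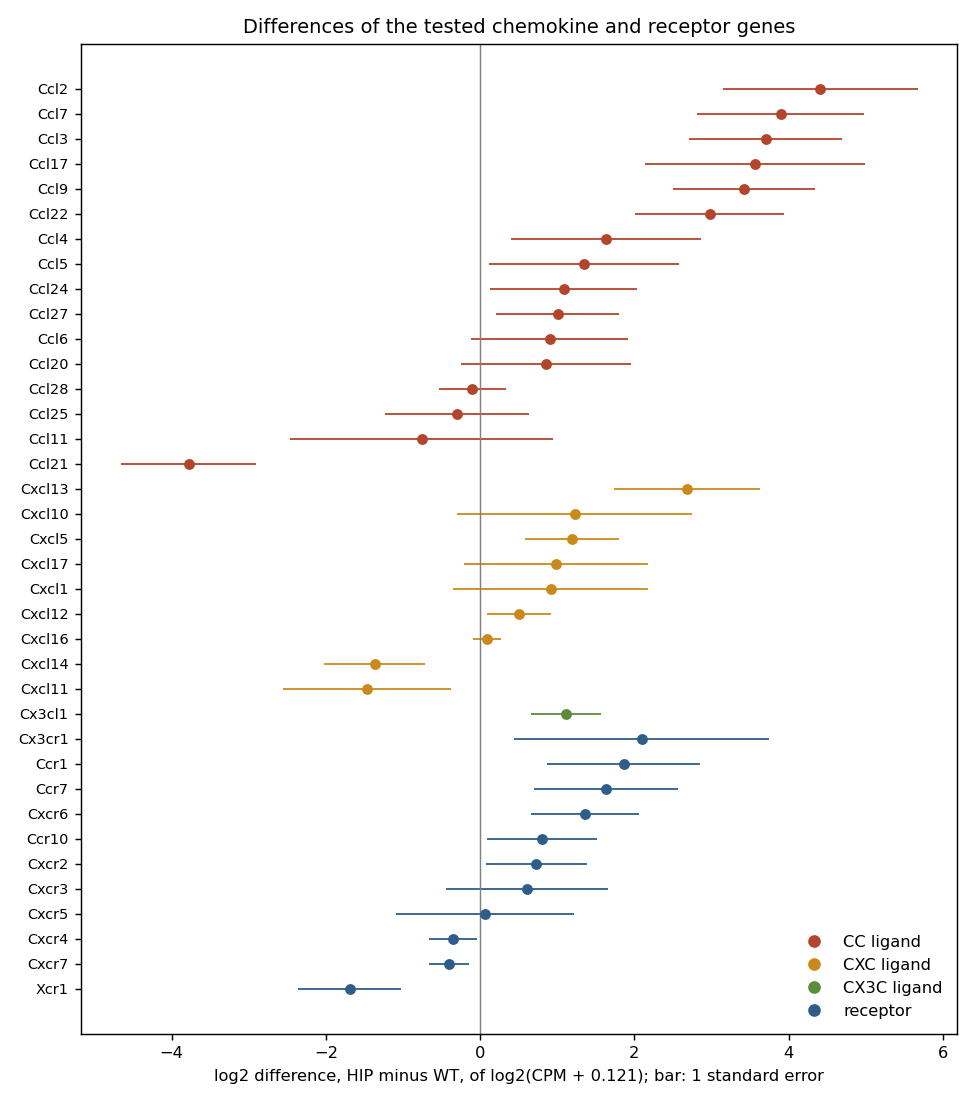
Difference between HIP and WT libraries, HIP minus WT, for 37 of the 38 tested members (horizontal axis, log2 of CPM + 0.121; points are fitted differences, bars 1 standard error, n = 3 libraries per group), coloured by class. Ccl2, Ccl7, Ccl3, Ccl17, Ccl9 and Ccl22 head the CC ligands, and Ccl21 stands at the other end at -3.78.

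Ccl2 and Ccl7, which attract monocytes through the receptor Ccr2, were the CC ligands with the greatest differences. Ccl2 had 31.4, 23.5 and 3.42 CPM in HIP30, HIP2 and HIP3, against 0, 0.611 and 2.96 CPM in WT26, WT1 and WT4. HIP30 and HIP2 stood far above all WT libraries, whereas HIP3, with 56 reads, lay just above WT4, with 48. The log2 difference was 4.41 ± 1.26 (SE; limma, adjusted p = 0.691). Ccl7 had 9.74, 7.35 and 0.856 CPM in the HIP libraries, against 0, 0.122 and 0.616 CPM in the WT libraries, a log2 difference of 3.90 ± 1.09 (SE; limma, adjusted p = 0.691). The libraries fell in the same order for both genes, and HIP3 again lay next to WT4. Ccr2 was not analysed here. In RNA from captured tissue, fewer cells of a type and less RNA per cell cannot be told apart.

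Ccl3, a ligand of Ccr1 made by activated macrophages, and Ccl9, a myeloid attractant described in mice, were nearly absent from WT glands. Ccl3 had 10.8, 4.66 and 1.10 CPM in HIP30, HIP2 and HIP3, against 0, 0.428 and 0.308 CPM in WT26, WT1 and WT4. No WT library held more than 7 reads of Ccl3, and the lowest HIP library held 18. Its log2 difference was 3.70 ± 0.99 (SE; limma, adjusted p = 0.691). Ccl9 had 5.65, 2.14 and 1.16 CPM in the HIP libraries, against 0, 0.0611 and 0.493 CPM in the WT libraries, with a log2 difference of 3.42 ± 0.92 (SE; limma, adjusted p = 0.691). The HIP libraries kept the order seen for Ccl2, and no WT library reached them. Ccl3 and Ccl9 passed the filter through HIP libraries alone, so a gap between the groups was fixed in advance for both.

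Ccl9 and Ccl7 are the members of this group with the lowest unadjusted p that have an entry in the RefSeq promoter table of the GRCr8 build, and the 250 bases before their starts are shown because both genes were near 0 in WT glands. Capitals mark matches on either strand to the NF-kB consensus, to the AP-1 motif TGANTCA and to the TATA motif TATAAA. Ccl9 lies on the minus strand at chr10:68868878-68869127 and Ccl7 on the plus strand at chr10:67513845-67514094.
Ccl9: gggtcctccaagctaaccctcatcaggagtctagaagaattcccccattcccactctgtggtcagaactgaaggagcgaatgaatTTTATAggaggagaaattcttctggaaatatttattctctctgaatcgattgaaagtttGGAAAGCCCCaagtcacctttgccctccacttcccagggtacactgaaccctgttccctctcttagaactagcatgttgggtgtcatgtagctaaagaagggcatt
Ccl7: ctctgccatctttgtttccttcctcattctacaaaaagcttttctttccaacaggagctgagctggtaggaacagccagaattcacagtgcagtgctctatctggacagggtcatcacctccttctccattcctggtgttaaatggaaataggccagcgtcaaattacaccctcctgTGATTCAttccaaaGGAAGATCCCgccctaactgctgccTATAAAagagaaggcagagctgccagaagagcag
In Ccl7 an AP-1 match begins 73 bases before the start, an NF-kB match 59 bases and a TATA match 34 bases before it, and in Ccl9 a reverse TATA match begins 165 and an NF-kB match 106 bases before it. Of 36 members with a promoter entry, 9 held an NF-kB match in these 250 bases, or 25%, against 6.33% of 33469 promoters in the table. AP-1 matches were held by 7 members, or 19.4%, against 6.34%, and TATA matches by 12 members, or 33.3%, against 12.9%. The other NF-kB matches fell in Ccl20, Cxcl1, Cxcl2, Cxcl5, Cxcl10, Cxcl11 and Ccr3, of which Cxcl2 and Ccr3 were not tested and the others had an unadjusted p above 0.05. Sites of 4 CXC ligands are set side by side, since these share part of their letters.
Cxcl1: GGGAATTTCC
Cxcl5: GGGAATTTCC
Cxcl2: GGGGATTTCC
Cxcl11: GGGAAATTCC
In Cxcl1, Cxcl2, Cxcl5 and Cxcl10 overlapping matches lie 1 base apart, and each promoter was counted once. A match describes these letters only, and binding was not measured.

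Ccl22 and Ccl17 attract T cells through Ccr4 and are made mainly by dendritic cells and macrophages. Ccl22 had 50.8, 32.6 and 2.87 CPM in HIP30, HIP2 and HIP3, against 1.73, 2.02 and 2.46 CPM in WT26, WT1 and WT4. The WT libraries lay close together, HIP30 and HIP2 stood far above them, and HIP3 exceeded WT4 by 47 reads to 40. The log2 difference was 2.98 ± 0.97 (SE; limma, adjusted p = 0.691). Ccl17, which the naming rule did not include and which was added after its values were seen, had the same 2 libraries on top. It had 42.1, 16.0 and 2.75 CPM in HIP30, HIP2 and HIP3, against 0, 2.81 and 3.20 CPM in WT26, WT1 and WT4, so HIP3 lay inside the WT range. Its log2 difference was 3.56 ± 1.43 (SE; limma, adjusted p = 0.691), and 2.00 without WT26. The shared receptor Ccr4 had 2 reads in HIP30 and none in any other library.

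Cxcl13, a B cell attractant that acts through Cxcr5, was the CXC ligand with the greatest difference. It had 1.26, 1.90 and 0.917 CPM in HIP30, HIP2 and HIP3, against 0, 0 and 0.616 CPM in WT26, WT1 and WT4. Its counts were low, at 21, 31 and 15 reads against 0, 0 and 10 reads, and the groups did not overlap. The log2 difference was 2.69 ± 0.95 (SE; limma, adjusted p = 0.691). Of the 38 tested members, 6 stood higher in every HIP library than in every WT library and 3 stood lower, where 4.75% and 4.52% of all tested genes did so, or 9.27% in either direction. The 6 include Ccl3 and Ccl9 and the 3 include Ccl21, whose place was fixed by the filter.

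**Figure D2:**
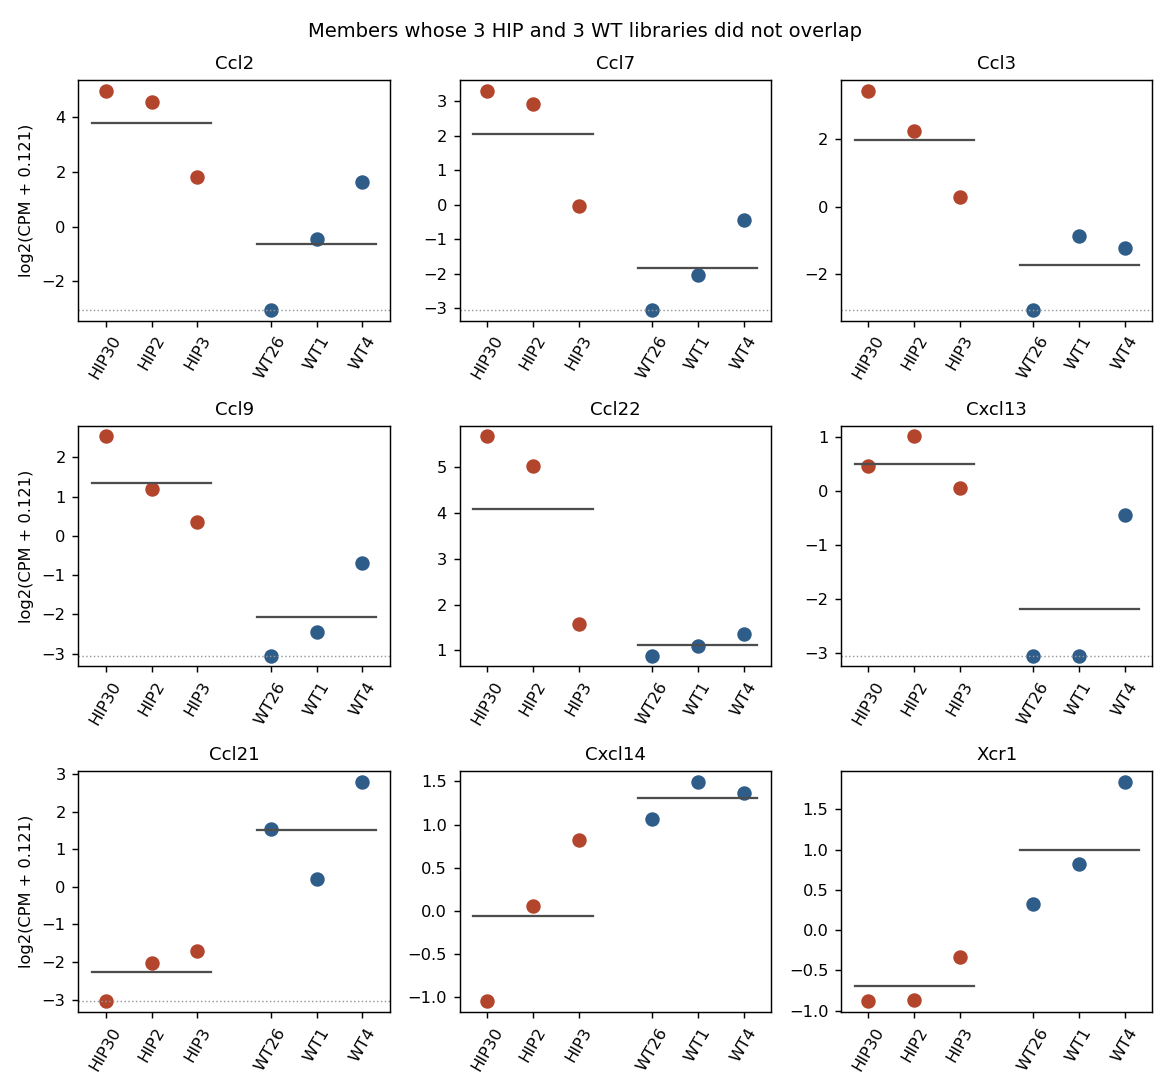
Level of the 9 members whose HIP and WT libraries did not overlap (vertical axis, log2 of CPM + 0.121; horizontal axis, the 3 HIP libraries at the left and the 3 WT libraries at the right; bars are group means, and the dotted line is a count of 0). HIP3 is the lowest HIP library for the 6 higher genes, and lies just above WT4 for Ccl2, Ccl7 and Ccl22. Ccl3, Ccl9 and Ccl21 passed the filter only through the group where they are high, so their gap was fixed.

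Genes that lie next to each other did not all share this pattern. In the RefSeq order of protein-coding genes, Ccl2, Ccl7, Ccl11 and Ccl12 are direct neighbours. Ccl11, an eosinophil attractant, had 0, 0.551 and 4.34 CPM in HIP30, HIP2 and HIP3, against 0, 2.57 and 5.30 CPM in WT26, WT1 and WT4. It was thus at 0 in the HIP library where Ccl2 was highest, and its log2 difference was -0.76 ± 1.71 (SE; limma, adjusted p = 0.945). The sign of that difference depended on single libraries, at 0.53 without HIP30 and 0.32 without WT4, but -2.08 without HIP3, -2.42 without WT26 and -0.18 without WT1. Ccl12 held 2, 11 and 5 reads against 0, 5 and 16 and was not tested. Another run of neighbours holds Ccl5, Ccl9, Ccl6, Ccl3 and Ccl4, where all 5 differences were positive, although that of Ccl6 was -0.37 among the libraries numbered 1 to 4. Ccl4, an attractant of monocytes and T cells, held 31, 14 and 1 reads in the HIP libraries, against 0, 0 and 11 in the WT libraries. Ccl5, a T cell and monocyte attractant, held 58, 41 and 3 reads, against 6, 1 and 31. For both of these and for Ccl6 the groups overlapped, with WT4 above HIP3.

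The neighbours Ccl17, Cx3cl1 and Ccl22 had positive differences throughout. Cx3cl1, a membrane-anchored ligand of epithelium and endothelium that binds Cx3cr1, had 398, 266 and 151 CPM in HIP30, HIP2 and HIP3, against 79.5, 90.8 and 217 CPM in WT26, WT1 and WT4. WT4 lay above HIP3, so the groups overlapped, while WT26 and WT1 lay below all HIP libraries. The means were 272 ± 123 CPM in HIP and 129 ± 76.1 CPM in WT (SD, n = 3 each), and the log2 difference was 1.12 ± 0.45 (SE; limma, adjusted p = 0.691). It was 0.52 among the libraries numbered 1 to 4.

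**Figure D3:**
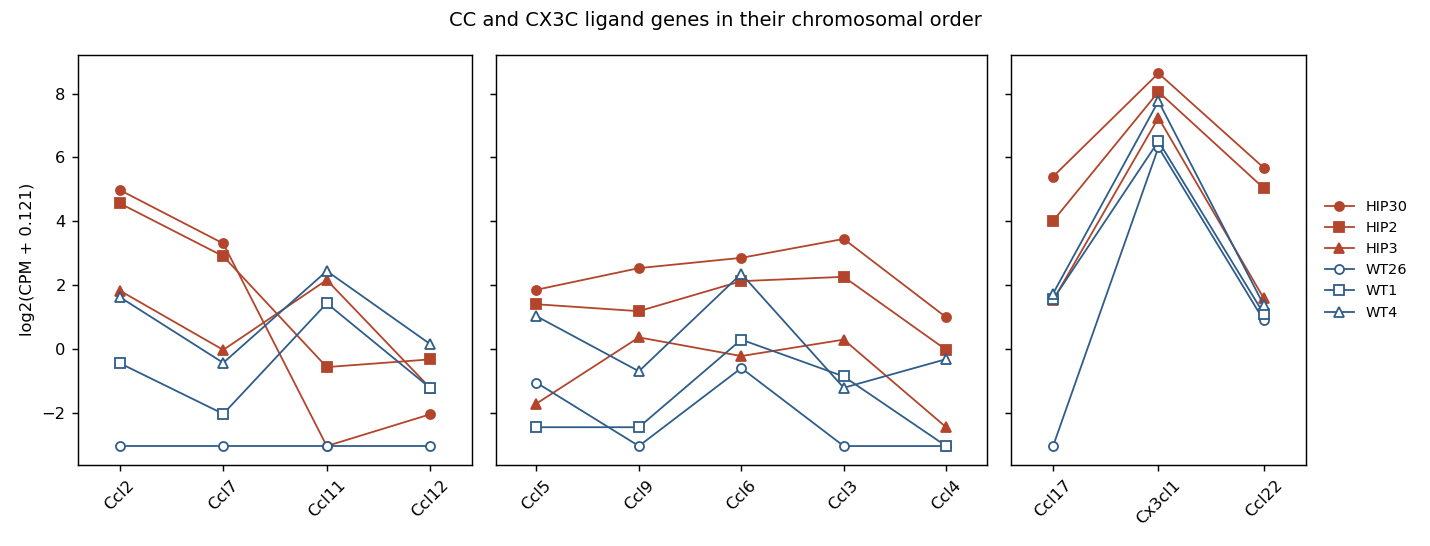
Level of CC and CX3C ligand genes in their order along the chromosome, in 3 runs of direct neighbours (vertical axis, log2 of CPM + 0.121; 1 line per library, HIP filled and WT open). HIP30 and HIP2 lead at Ccl2, Ccl7, Ccl9, Ccl3, Ccl17 and Ccl22 but not at Ccl11, where HIP30 had no read.

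For Cxcl16 and Cxcl12, the CXC ligands of epithelium and stroma with many reads, HIP and WT libraries overlapped. Cxcl16, a membrane-anchored ligand of Cxcr6, had 255, 273 and 198 CPM in HIP30, HIP2 and HIP3, against 211, 231 and 235 CPM in WT26, WT1 and WT4. The HIP libraries enclosed the WT range, and the log2 difference was 0.09 ± 0.18 (SE; limma, adjusted p = 0.935). Cxcl12, a stromal ligand of Cxcr4 that retains leukocytes and progenitors, had 21.2, 21.6 and 43.1 CPM in the HIP libraries, against 14.5, 14.97 and 31.8 CPM in the WT libraries. HIP3 and WT4 were the highest library of their groups, and the log2 difference was 0.50 ± 0.42 (SE; limma, adjusted p = 0.800). It was 0.17 without HIP3, 0.88 without WT4, 0.31 without WT26 and 0.33 without WT1.

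Neutrophil attractants that act through Cxcr2 were uneven between libraries. Cxcl5, listed as Cxcl6 in current RefSeq, had 32.8, 17.0 and 7.40 CPM in HIP30, HIP2 and HIP3, against 4.12, 6.66 and 12.1 CPM in WT26, WT1 and WT4, with a log2 difference of 1.20 ± 0.61 (SE; limma, adjusted p = 0.691), and 0.69 without HIP30. Cxcl1 was highest in WT4, at 7.89 CPM, above its HIP levels of 4.27, 3.61 and 0.550 CPM. Cxcl2 held 8 reads over all libraries and Cxcl3 held 39, and neither was tested. The interferon-induced ligands of Cxcr3 were highest in WT4. Cxcl10 had 4.93, 2.45 and 1.77 CPM in HIP30, HIP2 and HIP3, against 0, 0.978 and 14.3 CPM in WT26, WT1 and WT4. Cxcl9 held 32 of its 44 reads in WT4.

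Ccl21, Cxcl14 and Xcr1 stood lower in every HIP library than in every WT library. Ccl21 guides dendritic cells and naive T cells through Ccr7 and is made by lymphatic endothelium and lymphoid stroma. It held 0, 2 and 3 reads in HIP30, HIP2 and HIP3, against 47, 17 and 110 reads in WT26, WT1 and WT4, which is 0, 0.123 and 0.183 CPM against 2.81, 1.04 and 6.78 CPM. The HIP libraries were all at or near 0, and this includes HIP3, which for Ccl2, Ccl7 and Ccl22 lay beside WT4. The log2 difference was -3.78 ± 0.87 (SE; limma, adjusted p = 0.691). Its unadjusted p by limma was the lowest among the members (0.00253). Ccl21 passed the filter through WT libraries alone and so had to differ, and this p is no support for a difference. Ccl19, the other ligand of Ccr7, held 0, 2 and 29 reads against 0, 1 and 11, and Ccr7 itself held 15, 12 and 19 reads against 15, 0 and 3.

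Of 11 tested endothelial and lymphatic markers, a list that covers cells that make Ccl21, 5 had positive and 6 negative differences. Their median was -0.20 (log2), where 50% of all tested genes were positive. Lyve1, of lymphatic endothelium, stood at 2.37 ± 0.574 CPM in HIP and 1.84 ± 1.09 CPM in WT, with overlapping groups (SD, n = 3 each; limma, adjusted p = 0.878). Prox1, from the same marker list, stood at 149.9 ± 7.07 CPM in HIP and 123 ± 38.5 CPM in WT. That is far above Lyve1 and above the endothelial marker Pecam1, whose mean in HIP was 35.5 CPM. Prox1 is therefore not read here as a measure of lymphatic endothelium, and which cells held it was not tested. Flt4, a receptor of lymphatic endothelium, stood at 1.91 ± 0.223 CPM in HIP and 3.06 ± 2.64 CPM in WT, and Cldn5, an endothelial claudin, at 0.627 ± 0.3002 and 1.95 ± 1.34 CPM, lower in every HIP library than in every WT library (SD, n = 3 each; limma, adjusted p = 0.929 for Flt4 and 0.691 for Cldn5). Pdpn, of lymphatic endothelium and stroma, had 1.14, 3.19 and 7.88 CPM in HIP30, HIP2 and HIP3, against 5.97, 11.4 and 14.2 CPM in WT26, WT1 and WT4. Its log2 difference was -1.64 ± 0.70 (SE; limma, adjusted p = 0.691). All 10 fibroblast markers had negative differences, and their median was -1.19 (log2), with marker sums of 415, 757 and 1755 CPM in the HIP libraries, against 1419, 1975 and 2199 CPM in the WT libraries. The fibroblast sum of HIP3 lay inside the WT range while its Ccl21 was at 3 reads. The part of fibroblast content in the Ccl21 difference was not tested.

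Cxcl14, a ligand of epithelium and fibroblasts, had 0.361, 0.919 and 1.65 CPM in HIP30, HIP2 and HIP3, against 1.97, 2.69 and 2.46 CPM in WT26, WT1 and WT4, a log2 difference of -1.37 ± 0.66 (SE; limma, adjusted p = 0.691). Without HIP30 it was -0.86. Cxcl14 rose from HIP30 through HIP2 to HIP3, as did the fibroblast sum, and WT26 was the lowest WT library for both. WT1 was highest for Cxcl14, at 44 reads against 40 in WT4, while WT4 was highest for the sum. The part of fibroblast content was not tested. Xcr1, the receptor of cross-presenting dendritic cells, had 0.421, 0.429 and 0.672 CPM in the HIP libraries, against 1.13, 1.65 and 3.45 CPM in the WT libraries, a log2 difference of -1.69 ± 0.67 (SE; limma, adjusted p = 0.691). Counts were 7 to 11 reads against 19 to 56 reads. Clec9a, another marker of these cells, had a log2 difference of 0.00 ± 0.62 (SE), and Batf3 one of 0.22 ± 0.87 (SE). Of 9 tested dendritic cell markers 8 had positive differences, with a median of 0.39. The exception was Flt3, which stood at 0.588 ± 0.139 CPM in HIP and 1.21 ± 0.523 CPM in WT (SD, n = 3 each).

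Cxcl11, a ligand of Cxcr3 and Cxcr7, also had a negative difference but overlapping groups. It had 0, 0.674 and 1.65 CPM in HIP30, HIP2 and HIP3, against 1.07, 0.794 and 3.14 CPM in WT26, WT1 and WT4, a log2 difference of -1.46 ± 1.09 (SE; limma, adjusted p = 0.769). It was -0.36 without HIP30, the library at 0 reads, -2.30 without HIP3 and -0.91 without WT4. In RefSeq order Cxcl11 lies next to Cxcl10, which lies next to Cxcl9.

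Receptors had a lower median difference than the CC ligands, and the difference between the classes was not tested. Of 12 tested receptors 8 had positive differences, with a median of 0.67, against 1.21 for the 16 tested CC ligands and 0.92 for the 9 tested CXC ligands. The CC ligands include Ccl3, Ccl9 and Ccl21, whose differences were fixed by the filter, so these medians are no support for a difference between classes. The summed receptor level was 226, 248 and 367 CPM in HIP30, HIP2 and HIP3, against 326, 315 and 374 CPM in WT26, WT1 and WT4. Cxcr7 alone made up most of this sum in every library. The summed CC ligand level was 188, 112 and 29.2 CPM in the HIP libraries, against 12.5, 24.0 and 48.0 CPM in the WT libraries.

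Cxcr7, now named Ackr3, an atypical receptor that takes up Cxcl12, carried most receptor reads. It had 151, 194 and 305 CPM in HIP30, HIP2 and HIP3, against 271, 265 and 290.2 CPM in WT26, WT1 and WT4. HIP30 and HIP2 lay below the narrow WT range and HIP3 above it, and the log2 difference was -0.40 ± 0.26 (SE; limma, adjusted p = 0.723). Without HIP30 it was -0.17 and without HIP3 it was -0.68. Cxcr4, the signalling receptor of Cxcl12, had 30.1, 20.5 and 42.7 CPM in the HIP libraries, against 46.6, 31.6 and 37.7 CPM in the WT libraries, a log2 difference of -0.36 ± 0.31 (SE; limma, adjusted p = 0.812). HIP3 lay inside the WT range for Cxcr4, and HIP30 and HIP2 lay below it. The difference was -0.09 without HIP2, -0.62 without HIP3 and -0.21 without WT26.

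Receptors of macrophages and T cells overlapped between the groups. Cx3cr1, the Cx3cl1 receptor of resident macrophages, had 19.8, 12.4 and 2.81 CPM in HIP30, HIP2 and HIP3, against 0, 4.95 and 15.1 CPM in WT26, WT1 and WT4. Its log2 difference of 2.10 ± 1.65 (SE; limma, adjusted p = 0.788) rested on the count of 0 in WT26, since it was 0.04 without that library, 3.53 without WT4 and -0.53 among the libraries numbered 1 to 4. Ccr1, which binds Ccl3, Ccl7 and Ccl9, held 39, 17 and 18 reads against 0, 5 and 21. Cxcr6, the receptor of Cxcl16 on T cells, had 5.53, 3.68 and 5.38 CPM in the HIP libraries, against 0.597, 2.08 and 4.25 CPM in the WT libraries, with WT4 above HIP2.

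**Figure D4:**
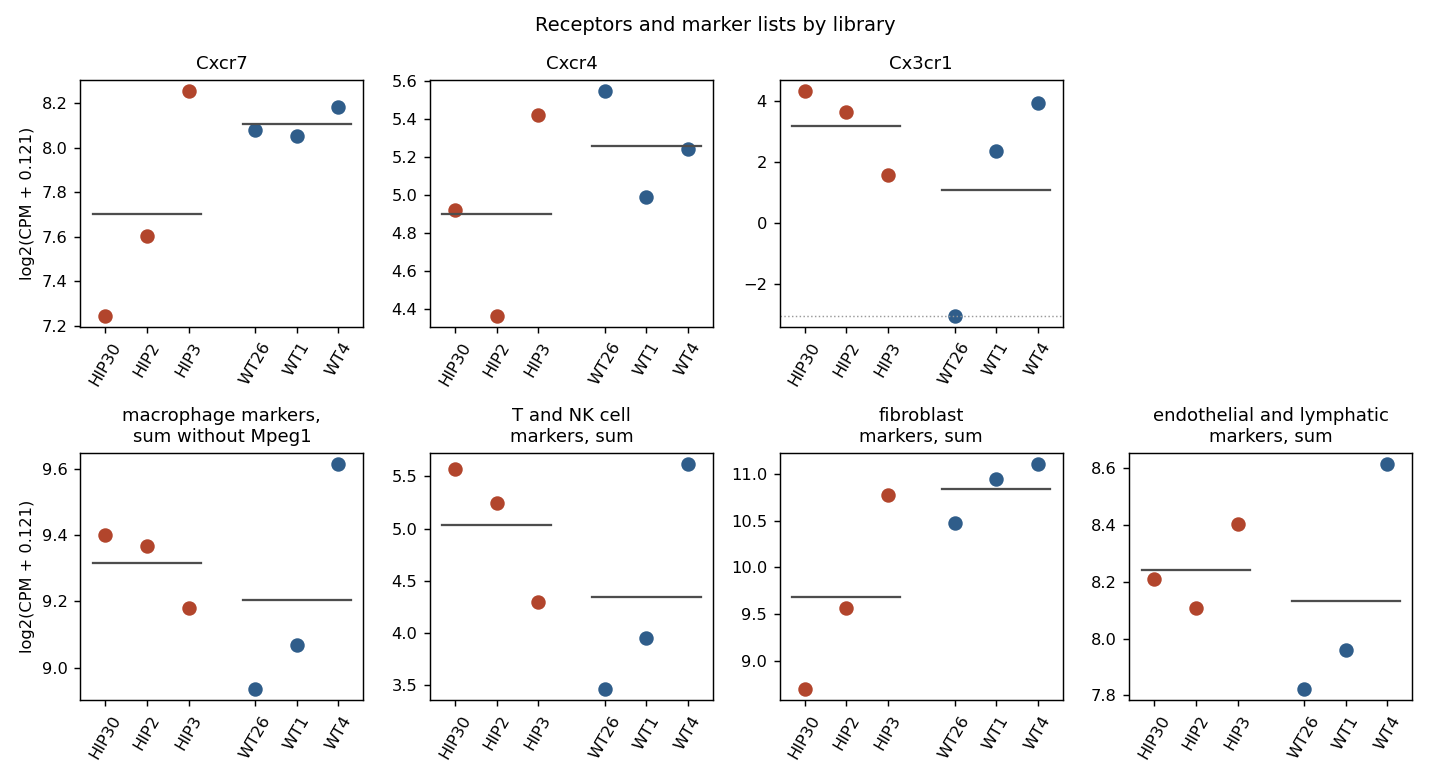
Upper row, level of the receptors Cxcr7, Cxcr4 and Cx3cr1; lower row, summed level of 4 marker lists (vertical axes, log2 of CPM + 0.121, each panel with its own range; horizontal axis, 3 HIP libraries at the left and 3 WT libraries at the right; bars are group means). WT4 is the highest library for the macrophage sum without Mpeg1 and the T cell and endothelial sums, and the groups overlap in every panel.

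The other members had overlapping groups or were not tested. Ccl28, an epithelial ligand of Ccr10, stood at 4.75 ± 1.32 CPM in HIP and 5.15 ± 1.61 CPM in WT (SD, n = 3 each). Ccl20, Ccl24, Ccl27, Cxcl17, Ccr7, Ccr10, Cxcr2, Cxcr3 and Cxcr5 had log2 differences between 0.06 and 1.63, and Ccl25 one of -0.30, all with overlapping groups. The 10 members not tested had 1 to 51 reads over all libraries and at most 1.97 CPM in any library. They were Ccl12, Ccl19, Cxcl2, Cxcl3, Cxcl9, Ccr1l1, Ccr3, Ccr4, Ccr6 and Ccr9. Ccr3, the eosinophil receptor, had 6 reads and Ccr1l1 had 1, all in WT4. Of 31 textbook ligand and receptor pairs with both genes listed, 19 had reads of both genes in all 3 HIP libraries and 10 in all 3 WT libraries. By library the pairs with reads of both genes numbered 22, 25 and 24 in HIP30, HIP2 and HIP3, against 11, 17 and 28 in WT26, WT1 and WT4, so WT26 held the fewest and WT4 the most.

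Markers of leukocytes were given beside these ligands. Of 19 macrophage and monocyte markers 17 had positive differences, with a median of 0.65. Their sum was 2584, 2612 and 724 CPM in HIP30, HIP2 and HIP3, against 489.8, 717 and 970.2 CPM in WT26, WT1 and WT4. Most of the HIP30 and HIP2 sums was Mpeg1, a pore-forming protein of macrophages, with 1908, 1952 and 144 CPM against 0, 180.2 and 187 CPM. Without Mpeg1 the sums were 676, 659.8 and 580.5 CPM against 489.8, 537 and 783 CPM, so WT4 was highest. The greatest part of these sums was Cd14, whose difference was negative, so they weigh this gene above the other markers. Cd14 had 212, 239 and 278 CPM in HIP30, HIP2 and HIP3, against 324, 316 and 227 CPM in WT26, WT1 and WT4. Csf1r, the macrophage growth factor receptor, had 57.2, 63.5 and 37.8 CPM in the HIP libraries, against 14.7, 25.0 and 71.2 CPM in the WT libraries. The part of macrophage content in the ligand differences was not tested.

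Markers of other leukocytes were low or overlapped between groups. T and NK cell markers summed to 47.3, 37.7 and 19.6 CPM in HIP30, HIP2 and HIP3, against 10.9, 15.4 and 49.0 CPM in WT26, WT1 and WT4. Of the 18 markers 8 were tested, and all 8 had positive differences, where 50% of all tested genes were positive. Markers too low to be tested went both ways. Nkg7 held 9 reads in the HIP and 37 in the WT libraries, and Klrd1 held 42 and 8. Cd4 made up much of the T and NK cell sums, with 30.1, 22.8 and 6.66 CPM in the HIP libraries, against 5.20, 10.4 and 19.3 CPM in the WT libraries. That is far above Cd3e, at 0.541 to 2.33 CPM in HIP and 0 to 2.59 CPM in WT. Cd4 is therefore not read here as a measure of T cells, and which cells held it was not tested. Neutrophil markers summed to 2.51 to 4.63 CPM in HIP and 2.26 to 5.97 CPM in WT, with S100a8 at no more than 5 reads in any library. Dendritic cell markers summed to 373 to 689 CPM in HIP and 198 to 952 CPM in WT, B and plasma cell markers to 5.21 to 8.17 and 4.03 to 7.82 CPM, and mast cell and eosinophil markers to 45.1 to 122 and 103 to 142 CPM. Most of the dendritic sum was Cd74, at 236 to 449 CPM in HIP and 126 to 586 CPM in WT. Nearly all of the mast cell and eosinophil sum was Kit, at 43.3 to 119 CPM in HIP and 100 to 141 CPM in WT. Endothelial and lymphatic markers summed to 276 to 339 CPM in HIP and 226 to 392 CPM in WT. Prox1 made up much of that sum, at 143 to 157 CPM in HIP and 88.9 to 165 CPM in WT. Acinar markers summed to 29.4 to 124 CPM in HIP and 25.1 to 83.7 CPM in WT.

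Immediate early genes, which respond to handling as well as to signals, were mostly at lower levels in HIP glands. Of 9 tested, 7 had negative differences with a median of -0.62, and 5 (Fos, Junb, Egr1, Atf3 and Nr4a1) were lower in every HIP library than in every WT library and at an unadjusted p under 0.05. These 5 are 55.6% of the list, where 4.52% of all tested genes were lower without overlap and 3.4% lower at that p. Atf3, a stress-induced transcription factor, had 1.20, 11.5 and 12.7 CPM in HIP30, HIP2 and HIP3, against 100.3, 45.5 and 23.5 CPM in WT26, WT1 and WT4, a log2 difference of -3.04 ± 0.90 (SE; limma, adjusted p = 0.691). The part of handling in the chemokine differences was not tested.

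Genes upstream and downstream of chemokines did not pass the test either. Of 15 tested genes of NF-kB and its inhibitors, the transcription system that drives many chemokine genes, 11 had positive differences with a median of 0.08, and none had an unadjusted p under 0.05. The lowest p belonged to Tnip2, an NF-kB inhibitor, at 34.0 ± 9.12 CPM in HIP and 23.3 ± 4.37 CPM in WT (SD, n = 3 each), followed by the kinase Ikbkb. Of 19 inducing cytokines and their receptors 9 had positive differences, with a median of -0.04. Il33, an epithelial alarmin, had 372, 330.4 and 248 CPM in HIP30, HIP2 and HIP3, against 36.7, 85.1 and 131 CPM in WT26, WT1 and WT4. Il1r1, the interleukin-1 receptor, had 69.1, 85.9 and 73.8 CPM in the HIP libraries, against 45.7, 57.2 and 54.6 CPM in the WT libraries. The HIP libraries lay above the WT libraries for both genes (limma, adjusted p = 0.691 for each).

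The cytokine genes Tnf, Il6 and Ifng had few reads. Tnf held 12, 22 and 18 reads in the HIP libraries, against 2, 3 and 35 in the WT libraries, Il6 was read in HIP3 and WT4 only, and Ifng in WT4 only. Of 23 tested genes of signalling below chemokine receptors 6 had positive differences, with a median of -0.17. Arrb2, the arrestin that internalises them, stood at 13.8 ± 3.44 CPM in HIP and 6.28 ± 1.88 CPM in WT (SD, n = 3 each), and Elmo1, a guanine exchange partner in migration, at 50.5 ± 10.1 and 33.4 ± 10.7 CPM. Of 15 tested genes of chemokine processing and presentation 9 were positive, with a median of 0.05. Mmp2, which cleaves Ccl7 and Cxcl12, stood at 26.6 ± 6.11 CPM in HIP and 56.4 ± 7.63 CPM in WT, and Mmp12, a macrophage elastase, at 30.5 ± 6.58 and 9.34 ± 7.20 CPM (SD, n = 3 each; limma, adjusted p = 0.691 for each).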

How the data were processed

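PicoPure RNA of laser-captured duct glands was made into libraries by a Nugen low mass protocol, per the labels' protocols. STAR, HTSeq, edgeR, limma and the build rn5 are named in the submitters' processing notes, without versions or order, and strandedness and the handling of paralog reads are not given in the sources used here. Each library's table was deposited by the authors as log2 values. These are log2 CPM, read from the values, to which 0.25 reads (scaled to library size) had been added, with a floor of -6.04, and they gave back whole reads for 100% of entries within 0.1 reads. Reads of close paralogs such as Ccl3 and Ccl4, or Cxcl1, Cxcl2 and Cxcl3, could be split between them.

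TMM factors (trims of 30% and 5%) were computed from the recovered reads. Genes were tested if 3 libraries reached 0.61 CPM (10 reads of a median-sized library) and the total reached 15 reads, after 4 rows with repeated symbols were left out. limma 3.58.1 in R 4.3.3 was fitted to log2(CPM + 0.121), a pseudocount worth 2 reads, since a count model does not suit log2 values. Such differences understate the change of low genes. The steps were tested on simulated reads. Groups came from the titles. Alternatives covered scaling, filter, pseudocount, limma-voom, the title numbers and left-out libraries. Figures used matplotlib 3.10.9.

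Values in every library are given for the 6 tested members per direction with the lowest unadjusted p, members with a mean of at least 20 CPM and the 4 receptors with the highest mean, and from each pathway list for up to 2 genes with the lowest unadjusted p. The result of 1 receptor is not reported here, though totals and counts include it. Other members and markers named with values were added after their values were seen. The members and lists were chosen with earlier results of these data known. Of 48 symbols, 46 matched a current RefSeq symbol and 2 a synonym, and neighbours and promoters come from that table (GRCr8).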

Additional observations from a re-analysis of the deposited data

How the results depend on the processing

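No paired analysis was possible because the titles of the 2 groups share no number. The count of 0 genes past an adjusted p of 0.05 was the same in all 18 alternatives, over all genes and among members. The 10 members at an unadjusted p under 0.05 became 2 among the libraries numbered 1 to 4 and 28 without HIP3 and WT4, and ran from 5 to 15 with libraries left out in turn. The share over all tested genes moved with it, at 6.54% in the reported fit, 1.21% and 22% in those fits, and 1.97% to 14.9% with libraries left out. The median difference of tested members became 2.30 without HIP3 and WT4, whose removal had to widen the gap. It ran from 0.38 to 1.60 with libraries left out in turn. Over the alternatives (17 for Ccl7 and Ccl21, which a stricter filter left untested) the differences of Ccl2, Ccl7, Ccl3, Ccl9 and Ccl22 stayed positive. Their lowest values were 2.61, 2.67, 2.32, 2.35 and 2.08, and the difference of Ccl21 stayed between -5.15 and -2.96. For all of these genes the groups did not overlap, so with scaling unchanged leaving out libraries could not turn the sign. Ccl3, Ccl9 and Ccl21 had also passed the filter through 1 group alone. The steady signs are therefore no support for a difference. The sign turned in at least 1 alternative for 12 of 37 tested members, 9 of them among the libraries numbered 1 to 4. Of those given in full by the naming rule, it turned for Cx3cr1, at -0.53 among the libraries numbered 1 to 4, and for Cxcl16, at -0.0027 without HIP2 (up to 0.23 with others left out). The cause was not tested. Library totals in place of TMM factors gave positive differences for 59.6% of all genes against 50%, and a median of 0.08, while 28 of 38 members stayed positive. With 3 libraries per group and counts below 20 reads for several ligands, depth limits the order of HIP3 and WT4.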

Other observations

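Some relatives of the chemokines outside the symbol rule were too low to be tested and were looked at after their values were seen. Ppbp, a CXC ligand of platelets, held 22, 7 and 1 reads in HIP30, HIP2 and HIP3, against 2, 0 and 1 reads in WT26, WT1 and WT4. Ccrl2, which presents the attractant chemerin, held 30, 14 and 10 reads, against 3, 6 and 3 reads, with no overlap between the groups. The lymphotactin gene Xcl1, whose receptor is Xcr1, held 0, 4 and 0 reads against 0, 1 and 15 reads. The tested relatives included Cmklr1, a chemerin receptor, at 2.84 ± 0.589 CPM in HIP and 1.71 ± 1.18 CPM in WT, and Rarres2, which encodes chemerin, at 2.27 ± 0.286 and 3.91 ± 1.33 CPM (SD, n = 3 each). Of the 6 tested relatives 3 had positive differences, with a median of 0.25 (limma).

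WT4 was the library with the highest level for 16 of the 48 members and HIP30 for 20, while WT26 was the highest for 1. Dpp4, a protease that trims chemokines, had 343, 305 and 89.7 CPM in HIP30, HIP2 and HIP3, against 22.0, 76.0 and 147 CPM in WT26, WT1 and WT4.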
